A study of Mus musculus with 3 samples.

Results

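Costimulatory ligands and receptors of the tumour necrosis factor (TNF) family, with the T cell receptors of the CD28 family, were followed at the transcript level across the leukocytes of mouse sciatic nerve. The 9 genes, of 17168 in the deposited table, were chosen by their levels over the deposited cell classes and clusters in an earlier reading of these counts, and all 9 were measured. They are the ligands Cd40lg, Tnfsf8 and Tnfsf11, the receptors Cd40, Tnfrsf4, Tnfrsf9 and Tnfrsf18, and the immunoglobulin family receptors Icos and Cd28. Every sample came from mice of the NOD strain that carry 1 copy of the GW allele of Aire (NOD.AIRE GW/+) and were 15 weeks old. Aire is the thymic regulator of self-antigen expression. CD45+ cells, that is leukocytes, were taken from digested nerves after perfusion, and 3 droplet libraries were made, the first 2 read from the 3′ end of transcripts and the third from the 5′ end. All 3 libraries therefore belong to 1 group. The wild-type mice named in the series' text are not analysed here, so the comparisons are between cell classes within this genotype. The labels do not say whether the libraries came from separate animals, and the spread over libraries may be technical in part. Because these levels chose the genes, and the classes rest on the same counts, class levels of the 9 genes are given as a description, with no test.

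T cells that recognise antigen need further signals to divide, survive and act, and CD28, which binds CD80 and CD86 on antigen-presenting cells, is the first of these. ICOS is its inducible relative and binds ICOSL. The TNF family supplies later signals: CD40 ligand on helper T cells engages CD40 on B cells, macrophages and dendritic cells, while OX40 (Tnfrsf4), 4-1BB (Tnfrsf9) and GITR (Tnfrsf18) are receptors on activated T cells whose ligands sit mainly on antigen-presenting cells. CD30 ligand (Tnfsf8) binds CD30 (Tnfrsf8), and RANKL (Tnfsf11) binds RANK (Tnfrsf11a), a receptor of the myeloid lineage best known for driving osteoclasts. The TNF receptors of this set signal through TRAF adaptors to NF-kB. Regulatory T cells (Treg) are known in many tissues for high OX40, GITR, ICOS and 4-1BB.

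The table held 11640 cells and 47777138 unique molecular identifiers (UMIs, each a counted transcript molecule). Libraries 1, 2 and 3 held 6033, 2333 and 3274 cells, with medians of 3011, 4156 and 3713 UMIs per cell. Levels are scaled UMI counts (CPM, the UMIs of a gene out of 1e+06 UMIs), summed over the cells of 1 deposited class in 1 library, and errors are SD over the 3 libraries. The deposited annotation has 10 classes, of which 8 had at least 20 cells in every library and were ranked; plasmacytoid dendritic cells (pDC) and plasma cells were not ranked. Defining markers were read in the classes named for them, although cluster 5 of the Cd4 class also held those of other classes: Cd4 was at 382, 362 and 597 CPM in the Cd4 class, Foxp3 was at 468, 428 and 582 CPM in Treg, Cd8a at 537, 708 and 1084 CPM in Cd8, Cd79a at 1784, 2167 and 3298 CPM in B, and Csf1r at 667, 526 and 685 CPM in Mac, the macrophage class. In the conventional dendritic cell class (cDC) Flt3 was at 86.2, 206 and 194 CPM. 6 cell barcodes occurred in more than 1 library.

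Where libraries or clusters stood apart, it was in ways that touch these genes. T cell transcripts were also read in B cells and myeloid cells, most of all in library 3. Cd3e, a T cell receptor subunit, stood there at 11.8% of the Cd4 class level in B cells and 11.9% in macrophages. It stood at 6.79% and 2.05% in library 1 and at 0.577% and 0% in library 2. Cluster 5, placed in the Cd4 class, had a median of 861 UMIs per cell against 3128 in cluster 0 of the same class, and it held Cd8a (171, 189 and 1135 CPM) and Foxp3 (275, 324 and 158 CPM) beside Cd4.

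Positions are from GENCODE M21 on mm10. 2 of the receptors are neighbours: Tnfrsf4 (chr4:156013843-156016612) and Tnfrsf18 (chr4:156026164-156028895) lie on chromosome 4 with 9551 bases and no other protein-coding gene between them. Tnfrsf9 (chr4:150914562-150946102) and Tnfsf8 (chr4:63831308-63861347) are on the same chromosome. Cd28 (chr1:60716800-60773359) and Icos (chr1:60977927-61000320) flank Ctla4, with no other protein-coding gene in the interval. Cd40 is at chr2:165055627-165072948, Tnfsf11 at chr14:78277445-78308043 and Cd40lg at chrX:57212143-57224042. RefSeq promoter windows (GRCm38.p6, the 250 bases before an annotated start) were available for 5 of the 9 genes, Tnfsf8, Tnfsf11, Tnfrsf4, Tnfrsf18 and Tnfrsf9, the last with 2 starts. The windows of the neighbouring pair Tnfrsf4 and Tnfrsf18 are shown because both genes were highest in Treg, then Cd4, then Cd8; the Tnfrsf18 window is cut where an annotated exon begins. Each is on the plus strand, written 5′ to 3′.
Tnfrsf4, chr4:156013445-156013694: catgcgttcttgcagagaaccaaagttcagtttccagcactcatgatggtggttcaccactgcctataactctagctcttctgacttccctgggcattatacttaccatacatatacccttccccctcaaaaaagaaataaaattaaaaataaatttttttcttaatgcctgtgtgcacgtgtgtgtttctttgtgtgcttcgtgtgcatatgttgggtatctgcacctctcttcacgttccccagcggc
Tnfrsf18, chr4:156026072-156026163: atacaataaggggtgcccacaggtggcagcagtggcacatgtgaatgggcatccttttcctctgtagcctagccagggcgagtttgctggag

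The windows were searched on both strands for an NF-kB site (GGG, any 2 bases, then TTTCC), an AP-1 site (TGANTCA) and a forkhead site (TGTTTAC). Of 32851 promoter windows of this length in the table, 1.41% held the NF-kB letters, 6.75% the AP-1 letters and 3.17% the forkhead letters. Among the 6 windows of the 9 genes, only that of the downstream Tnfrsf9 start (chr4:150927749-150927998) held any: an NF-kB match beginning 43 bases and an AP-1 match beginning 15 bases before the start. Both lie in the 81 bases of that window that are annotated as exon. They are shown because Tnfrsf9 had the largest mean log2 ratio between Treg and cluster 6 of the Cd4 class (not in library 3, where those of Tnfsf8 and Cd40lg were larger in size), with the matched letters in capitals.
Tnfrsf9 NF-kB match, chr4:150927948-150927973, plus strand: gagcagctGGGGATTTCCcaggaggc
Tnfrsf9 AP-1 match, chr4:150927976-150927998, plus strand: tgctcagtTGAGTCAcaggtcct
A match is a run of letters only, and factor binding was not measured in the data analysed here.

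The 3 ligands were read mainly in the Cd4 class and were low in Treg. Cd40lg stood at 221, 190 and 264 CPM in Cd4 for libraries 1, 2 and 3 (225 ± 37.3, SD, n = 3), and at 281, 508 and 237 CPM in the class deposited as Mixed (342 ± 146). Mixed was above Cd4 in libraries 1 and 2 and below it in library 3, so the order of these 2 classes was not separated by the spread. Treg held 21.3, 14.1 and 31.0 CPM of Cd40lg, and its 3 values were all far below those of Cd4, with a log2 ratio of Treg to Cd4 of -3.34 ± 0.31. Cd8 followed at 13.8, 5.04 and 14.2 CPM, and the remaining ranked classes had means of 6.55 CPM or less. The Cd4 class gave 76.4% of all Cd40lg UMIs, averaged over libraries.

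Tnfsf8, encoding CD30 ligand, was the ligand most concentrated in one class. Its level in Cd4 was 936, 883 and 424 CPM (748 ± 282), library 3 being the lowest, and Cd4 held 89.0% of its UMIs. Mixed came next at 152, 221 and 54.2 CPM, below every Cd4 value, with a log2 ratio of Cd4 to Mixed of 2.52 ± 0.48. In Treg the level was 49.3, 49.6 and 26.8 CPM, and the log2 ratio of Treg to Cd4 was -4.09 ± 0.14. The levels of Treg, Cd8 (29.8 ± 23.1, and 16.4 without library 1) and B (22.5 ± 7.24) overlapped.

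Tnfsf11, encoding RANKL, had the same order with a smaller gap. Cd4 stood at 116, 236 and 271 CPM (208 ± 81.6) and Mixed at 40.6, 104 and 183 CPM (109 ± 71.2). Cd4 was above Mixed within each library, by 1.08 ± 0.47 on the log2 scale, although the ranges of the classes overlapped. Treg held 14.7, 19.0 and 42.6 CPM, below Cd4 in each library with a log2 ratio of -3.03 ± 0.48. Without library 3 the means of Mixed and Treg were 72.2 and 16.8 CPM, against 109 and 25.4 CPM with it. Libraries 1 and 2 held at most 2.09 CPM of Tnfsf11 in B, Mac and cDC, although the 0 UMIs in Mac and cDC of library 2 allow up to 3.22 and 9.82 CPM, while library 3 held 12.4, 35.7 and 39.6 CPM there, beside the T cell transcripts described above, whose part in these values was not tested.

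**Figure D1:**
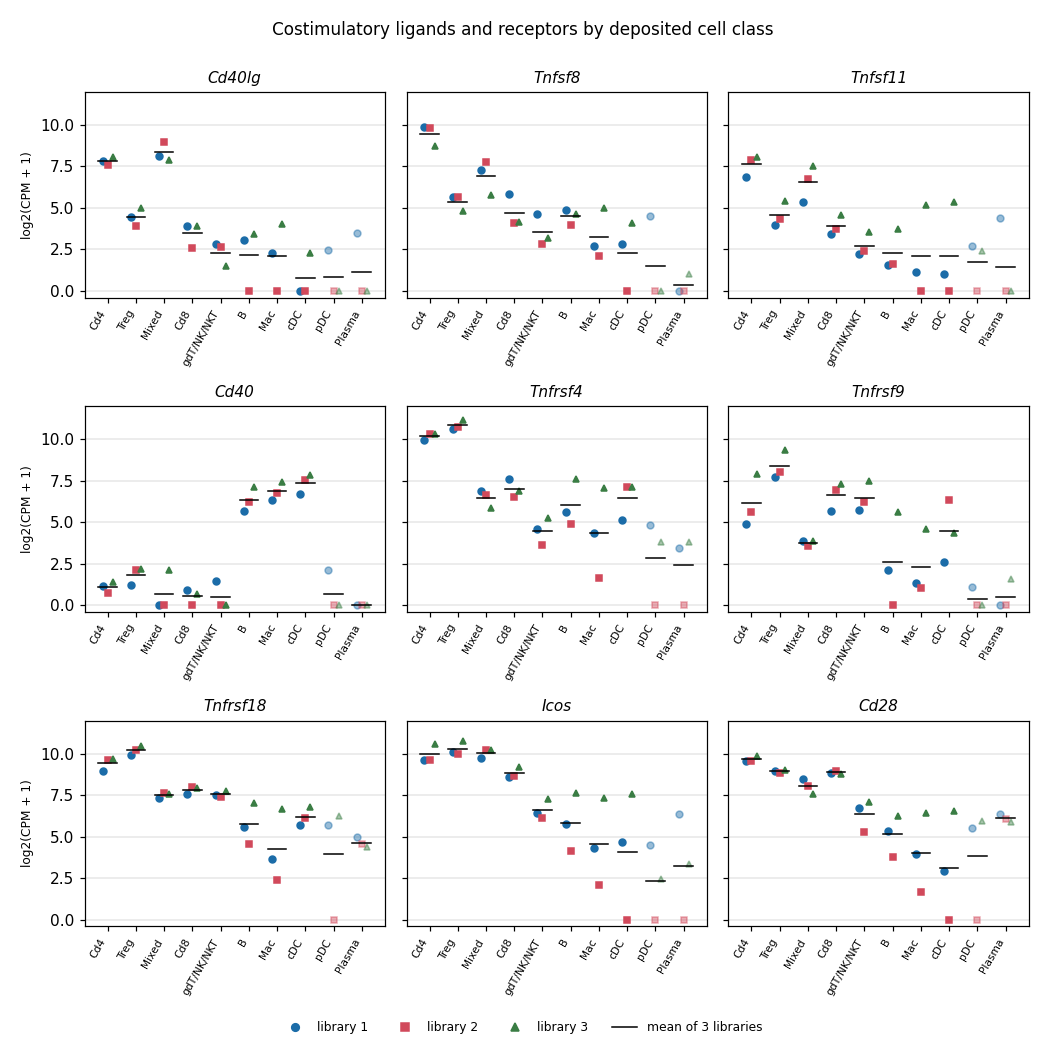
Levels of the 9 genes as log2(CPM + 1) in each deposited cell class, with 1 point per library and a bar at the mean of the 3 log2 values. The faded points are pDC and plasma cells, which were not ranked. The ligands peak in Cd4 and Mixed, Cd40 in B, Mac and cDC, and Tnfrsf4, Tnfrsf9 and Tnfrsf18 in Treg.

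Cd40 was the only gene of the 9 with its highest levels outside the T cell classes. It was read in cDC at 105, 186 and 226 CPM (172 ± 61.7), in macrophages at 80.6, 110 and 173 CPM (121 ± 47.0) and in B cells at 50.8, 73.1 and 140 CPM (88.0 ± 46.4). Within each library the order was cDC, then macrophages, then B cells, but the ranges of neighbouring classes overlapped and the gaps were smaller than the larger SD. The step to the next class was wide: Treg had 2.76 ± 1.25 CPM and the other T cell classes 1.20 CPM or less. No Treg value exceeded 3.65 CPM, against a lowest B cell value of 50.8 CPM. Averaged over libraries, B cells gave 36.3% of the Cd40 UMIs, macrophages 36.4% and cDC 24.3%. By library these shares were 34.9%, 17.5% and 56.5% in B cells, 30.9%, 51.0% and 27.4% in macrophages and 31.5%, 28.5% and 12.9% in cDC. The class with the largest share thus changed with the library, while the order by CPM did not. A share also depends on how many cells of the class were read. These were 1446, 89 and 415 B cells, 367, 106 and 108 macrophages and 232, 28 and 34 cDC in libraries 1, 2 and 3. Among the classes that were not ranked, pDC had 3 Cd40 UMIs in all, and plasma cells had 0, which allows up to 3.04 CPM in library 3, the library with most plasma cells, for counting error only.

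Tnfrsf4, encoding OX40, was highest in Treg. The Treg level was 1590, 1720 and 2328 CPM (1879 ± 394), and Cd4 followed at 978, 1252 and 1296 CPM (1175 ± 172) with no overlap. The log2 ratio of Treg to Cd4 was 0.67 ± 0.20. Cd8 stood far lower at 196, 93.0 and 119 CPM, a log2 ratio of Cd4 to Cd8 of 3.16 ± 0.75. From Cd8 downward, through cDC, Mixed, B, Mac and the class of gamma-delta T, NK and NKT cells, neighbours in the order overlapped. The cDC level was 34.8, 141 and 139 CPM. In library 2 its 43 UMIs came from 4 of 28 cells, and in library 3 1 cell held 28 of the 35 UMIs. Without library 3 the means were 38.5 in place of 89.7 CPM in B cells and 10.8 in place of 51.9 CPM in macrophages, and the order was Cd8, Mixed, cDC, B, the gamma-delta T, NK and NKT class, then Mac.

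Tnfrsf18, encoding GITR, followed the same order at the top but reached further down. Treg stood at 968, 1200 and 1399 CPM (1189 ± 216) and Cd4 at 494, 793 and 811 CPM (700 ± 178), without overlap, a log2 ratio of 0.78 ± 0.19. Cd8 had 189, 253 and 241 CPM (228 ± 34.1), the gamma-delta T, NK and NKT class 188 ± 28.6 CPM and Mixed 185 ± 19.6 CPM, 3 classes whose values overlapped. Unlike Tnfrsf4, which was at 24.1 ± 13.2 CPM in the gamma-delta T, NK and NKT class, Tnfrsf18 was there at 180, 164 and 219 CPM.

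Tnfrsf9, encoding 4-1BB, differed widely between libraries. In Treg it stood at 214, 259 and 652 CPM (375 ± 241), above every other class within each library; without library 3 the Treg mean was 236 CPM. Cd8 had 49.7, 122 and 157 CPM (109 ± 54.6), the gamma-delta T, NK and NKT class 52.1, 74.2 and 180 CPM (102 ± 68.5), and Cd4 29.0, 48.0 and 240 CPM (106 ± 117), which could not be ordered beyond their spread. Without library 3 the means of the latter 2 were 63.2 and 38.5 CPM. Library 3 was highest in all of these classes, and it is also the 5′ library, so the read end and the library cannot be told apart. Cluster 5 gave 63.9% of the Tnfrsf9 UMIs of the Cd4 class from 9.08% of that class's UMIs. Without cluster 5 the Cd4 level was 20.4, 38.3 and 65.5 CPM (41.4 ± 22.7), which placed it under Cd8 and under the gamma-delta T, NK and NKT class in each library.

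Icos was shared by 3 classes. Treg stood at 1111, 1021 and 1760 CPM (1297 ± 404), Mixed at 839, 1179 and 1202 CPM (1073 ± 203) and Cd4 at 798, 783 and 1562 CPM (1048 ± 446), and no pair of these was separated by the spread over libraries. Treg was above Cd4 within each library, by 0.34 ± 0.16 on the log2 scale. Cluster 5 gave 19.8% of the Icos UMIs of the Cd4 class, whose level without it was 936 ± 313 CPM. Cd8 was lower at 390, 409 and 590 CPM (463 ± 110), below every Cd4 value. The gamma-delta T, NK and NKT class had 103 ± 46.0 CPM.

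Cd28 had the reverse relation between Treg and Cd4. Cd4 was highest at 768, 745 and 942 CPM (818 ± 108), and Treg at 500, 459 and 522 CPM (494 ± 31.8) was below it in each library without overlap, a log2 ratio of -0.72 ± 0.12. Treg and Cd8 (465, 491 and 445 CPM) were not separated. Mixed had 348, 270 and 190 CPM. Plasma cells, not ranked for their small number, held 84 Cd28 UMIs at 80.8, 66.6 and 58.7 CPM, whereas B cells held 40.5, 12.5 and 76.5 CPM.

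The Cd4 class was made of clusters 0, 5 and 6, and these differed in the 9 genes. Cluster 5, the shallow cluster with Cd8a and Foxp3, had Tnfrsf9 at 147, 432 and 967 CPM, above Treg in libraries 2 and 3. Its Icos was at 1494, 1565 and 2664 CPM and its Cd28 at 1005, 1026 and 1446 CPM, both above Treg in each library. Tnfrsf4 (749, 2442 and 1019 CPM) and Tnfrsf18 (541, 1525 and 929 CPM) were above Treg in library 2 only. Cluster 5 had 67 cells in that library. Relative to cluster 0, cluster 6 had more Tnfrsf18 in each library (884, 1261 and 1179 CPM against 428, 652 and 658 CPM), a log2 ratio of 0.95 ± 0.10 with no overlap. Tnfrsf4 was also higher in cluster 6, at 1598 ± 308 against 1089 ± 126 CPM, as was Cd28 at 964 ± 26.7 against 724 ± 40.8 CPM. The ligands went the other way: Tnfsf11 was at 49.4, 87.8 and 157 CPM in cluster 6 and at 135, 279 and 371 CPM in cluster 0, lower in cluster 6 within each library by a log2 ratio of -1.44 ± 0.21. Tnfsf8 was at 591 ± 145 against 827 ± 278 CPM, and Cd40lg at 227 ± 50.2 against 253 ± 68.4 CPM; both were lower in cluster 6 in each library, with overlapping ranges.

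Cluster 6 therefore came close to Treg for some receptors and far from it for other genes. Tnfrsf4, Tnfrsf18 and Icos overlapped between Treg and cluster 6, with log2 ratios of 0.23 ± 0.14, 0.10 ± 0.16 and 0.17 ± 0.06. Tnfrsf9 did not: it was at 8.23, 5.06 and 97.4 CPM in cluster 6 against 214, 259 and 652 CPM in Treg, a log2 ratio of 4.23 ± 1.37 that library 3 made smallest. Cd40lg and Tnfsf8 were lower in Treg by log2 ratios of -3.34 ± 0.23 and -3.81 ± 0.15, and Cd28 by -0.97 ± 0.06. Foxp3, the Treg transcription factor, was at 1.65, 3.37 and 71.3 CPM in cluster 6, so library 3 was high there for Foxp3 and Tnfrsf9 together.

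**Figure D2:**
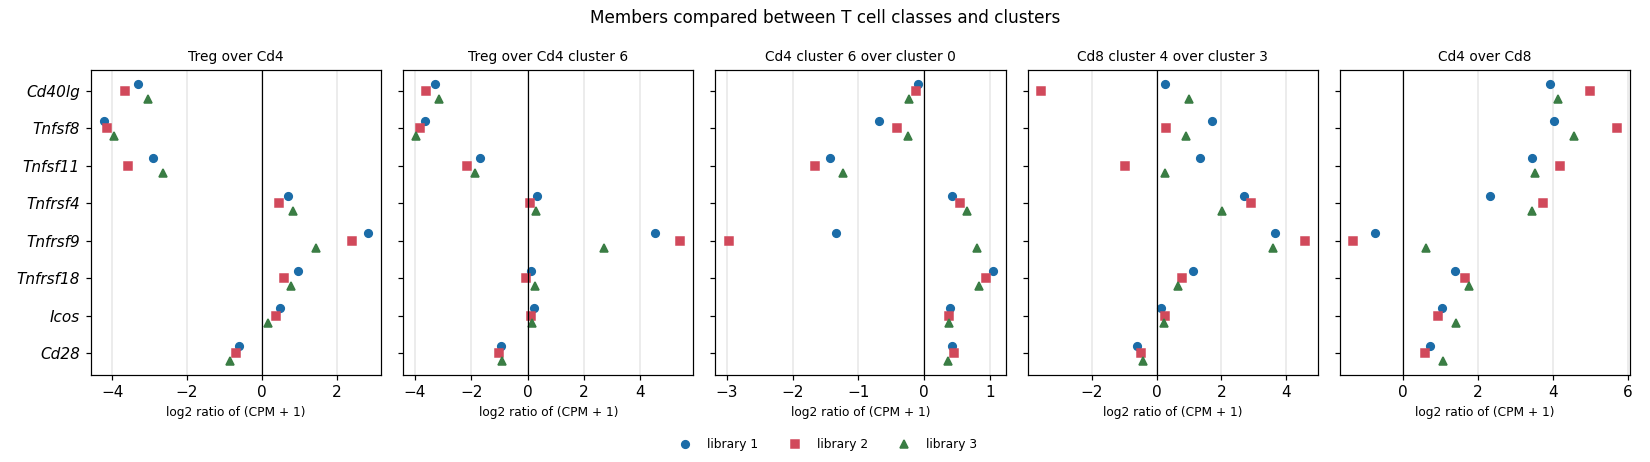
Log2 ratios of (CPM + 1) between T cell classes and clusters for 8 genes (Cd40, near 0 in T cells, is left out), with 1 point per library; points to the right of the line at 0 are higher in the first named. Treg and cluster 6 lie close together for Tnfrsf4, Tnfrsf18 and Icos and apart for Tnfrsf9, the ligands and Cd28. The range of the x axis differs between panels.

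Cd8 cells were split into clusters 3 and 4, and cluster 4 held most of the TNF receptor transcripts. Tnfrsf9 was at 75.4, 221 and 294 CPM in cluster 4 and at 5.11, 8.34 and 23.7 CPM in cluster 3, a log2 ratio of 3.93 ± 0.56. Tnfrsf4 was at 284, 156 and 193 CPM against 43.4, 20.0 and 47.4 CPM (2.53 ± 0.47), and Tnfrsf18 at 282 ± 41.5 against 159 ± 44.5 CPM (0.85 ± 0.24). All 3 receptors were higher in cluster 4 in each library, without overlap. Cd28 was lower in cluster 4, at 389, 415 and 380 CPM against 596, 578 and 509 CPM (-0.50 ± 0.10), and Icos overlapped. Since the clusters were made from these counts, the differences describe what set the clusters apart.

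The gamma-delta T, NK and NKT class joined cluster 8, rich in the NK receptor gene Ncr1 (257, 163 and 514 CPM) and poor in Cd3e (66.3, 121 and 154 CPM), with cluster 9, which had Cd3e at 842, 721 and 2730 CPM. Tnfrsf18 was higher in cluster 8, at 197, 194 and 229 CPM against 151, 147 and 178 CPM. Tnfrsf9 was at 41.3, 70.7 and 174 CPM in cluster 8 and at 70.0, 76.2 and 208 CPM in cluster 9, whose ranges overlapped. Cd28 was at 151, 73.3 and 136 CPM in cluster 8 and at 30.2, 19.0 and 132 CPM in cluster 9, where library 3 stood apart from the other libraries, as it did for Icos (90.7, 82.1 and 389 CPM) and for Tnfrsf4, at 129 CPM against at most 22.3 CPM in the others.

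The class deposited as Mixed is a single cluster of 291 cells with T cell receptor genes (Cd3e at 541, 623 and 1973 CPM), Il17a at 342, 1477 and 3476 CPM, Trdc, the gamma-delta receptor constant gene, at 230, 487 and 217 CPM, and Cd4 at 105, 104 and 108 CPM. Its cells were divided by whether a Trdc UMI was read, a division chosen after the values were seen. Cd40lg was lower in the cells with Trdc, at 137, 42.9 and 55.9 CPM against 306, 591 and 370 CPM in the cells without it. Cd28 in the same division was at 22.8, 0 and 7.99 CPM with Trdc against 405, 318 and 323 CPM without. In the cells with a Cd4 UMI, Cd28 was at 587, 656 and 500 CPM against 288, 157 and 107 CPM in those without. Not every gene kept 1 direction. Cd40lg was at 268, 713 and 581 CPM with a Cd4 UMI against 284, 448 and 146 CPM without. Tnfsf11 was at 68.3, 28.6 and 79.9 CPM with Trdc against 35.7, 117 and 258 CPM without. For Icos the cells with Trdc held 228, 830 and 1095 CPM against 945, 1241 and 1280 CPM, lower in each library but overlapping in range. Cells with Trdc numbered 16, 18 and 28 of 99, 123 and 69, with median depths of 2723, 3980 and 4332 UMIs against 2904, 3624 and 4277 UMIs.

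To compare how many cells carried a transcript, each cell was thinned to 1000 UMIs, and shallower cells were left out, 624 of 3790 in Cd4 and 6 of 1287 in Treg. Tnfrsf4 was then read in 73.5 ± 4.77% of Treg and 55.2 ± 2.68% of Cd4 cells, and Tnfrsf18 in 66.3 ± 7.24% and 46.8 ± 8.29%. Icos was read in 69.1 ± 9.86% of Treg, 57.7 ± 8.94% of Cd4 and 56.5 ± 10.5% of Mixed cells, and Cd28 in 53.8 ± 1.62% of Cd4, 39.3 ± 5.20% of Treg and 37.9 ± 1.65% of Cd8 cells. A Tnfrsf9 UMI was present in 15.4%, 17.5% and 34.3% of Treg. Of the ligands, Tnfsf8 was read in 37.1 ± 11.7% of Cd4 cells, library 3 being lowest at 23.7%, Cd40lg in 18.4 ± 1.02% and Tnfsf11 in 12.4 ± 3.71%. Cd40lg was read in 16.2%, 36.4% and 20.3% of Mixed cells.

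B cells are given for comparison, as cells not best known for these receptors; whether their UMIs are carried over was not tested. They had a median depth of 3114 UMIs against 2975 in Treg, and their thinned shares were 4.68 ± 4.21% for Tnfrsf4, 5.23 ± 3.85% for Tnfrsf18, 4.53 ± 3.91% for Icos, 2.16 ± 1.98% for Cd28 and 1.24 ± 1.85% for Tnfrsf9. Cd40 was read in 14.3 ± 10.4% of cDC, 10.6 ± 2.56% of macrophages and 8.45 ± 3.07% of B cells, against 0.0859 ± 0.0812% of Cd8 cells. The cDC share rests on library 2, with 10.8%, 25.9% and 6.06% in the 3 libraries, and without that library it was 8.42%, below the macrophage mean. Without thinning, the deeper cells of the myeloid classes raised the Cd40 shares to 46.1%, 57.1% and 38.2% in cDC and to 46.0 ± 10.3% in macrophages, with median depths of 8700 and 7434 UMIs, and 28.8 ± 14.2% in B cells. Unthinned shares were 93.6 ± 3.95% of Treg for Tnfrsf4 and 91.7 ± 7.74% for Tnfrsf18.

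**Figure D3:**
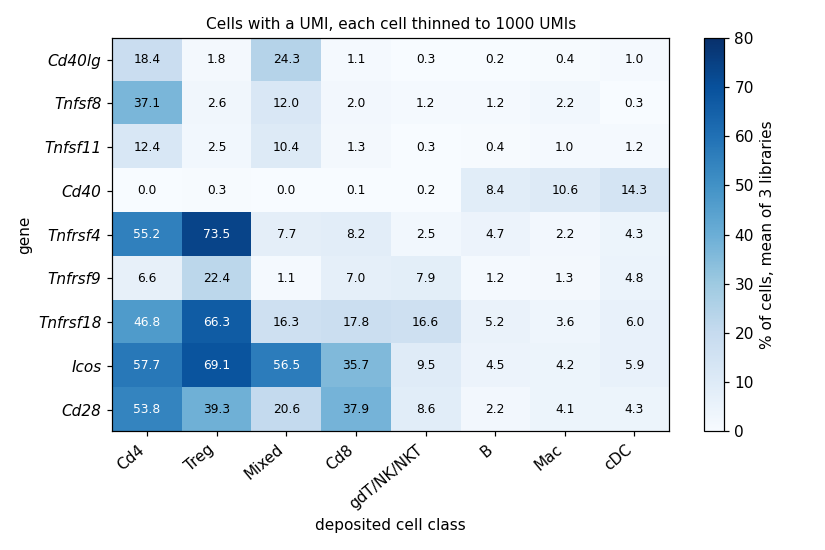
Share of cells with at least 1 UMI of each gene after every cell was thinned to 1000 UMIs, as the mean of the 3 libraries in percent, in the 8 ranked classes. Tnfrsf4 has the highest share in Treg at 73.5%, and Cd40 is at 14.3% in cDC (8.42% without library 2).

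Within a class, some of the genes were read in the same cells more often than their separate shares would give if independent. In cluster 0 of the Cd4 class, Tnfsf8 and Tnfsf11 were read together in 178 thinned cells against 129 expected, with odds ratios of 2.45, 1.85 and 2.35 in the 3 libraries. Tnfsf8 and Tnfrsf4 were read together in 624 cells against 526 expected (odds ratios 2.04, 2.07 and 2.57). For the neighbouring genes Tnfrsf4 and Tnfrsf18 the count was 553 against 473 (1.97, 1.72 and 1.93). The rarer Tnfrsf9 was read with Tnfrsf4 in 43 cells against 28.9 (4.40, 2.81 and 5.24). Tnfrsf4 and Icos, both frequent, were read together in 643 cells against 644 expected, with odds ratios of 1.01, 1.06 and 0.87. Cd40lg and Tnfsf8, both ligands, were together in 211 cells against 203 (1.02, 1.06 and 1.34). Cells of 1 library are not replicates, and the odds ratios are a description.

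Treg showed the same pairing for the receptors. Tnfrsf4 and Tnfrsf9 were read together in 237 Treg against 211 expected (1.63, 2.11 and 2.55), and Tnfrsf4 and Tnfrsf18 in 639 against 614 (1.37, 1.71 and 1.74). Tnfrsf4 and Cd28 went the other way, with 360 cells against 378 expected and odds ratios under 1 in each library (0.81, 0.71 and 0.66). In cluster 4 of Cd8, Tnfrsf4 and Tnfrsf18 were together in 51 cells against 29.7 expected (2.54, 2.15 and 2.68). In Mixed, Cd40lg and Icos were together in 56 cells against 42.9 (2.40, 3.15 and 4.31).

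Transcripts of the 8 genes other than Cd40 were also counted in B cells, macrophages and cDC. In B cells and macrophages their levels moved with the library. In macrophages they lay between 0.591% and 5.45% of the Cd4 class level of the same library in library 1, between 0% and 2.24% in library 2 and between 5.94% and 13.1% in library 3. Cd3e, Cd3d and Trac, the T cell receptor genes used as a comparison, lay at 11.9%, 13.4% and 20.6% in macrophages of library 3. B cells showed the same order of libraries, with ranges of 1.71% to 11.4%, 0% to 2.89% and 3.62% to 20.4%. As a percentage of the Cd4 class level, all 8 genes and all 3 T cell receptor genes were highest in library 3 in both B cells and macrophages. Tnfsf8 in B cells was, in CPM, highest in library 1 (28.8, 14.6 and 24.2 CPM). Without library 3 the mean of Icos was 11.3 in place of 60.3 CPM in macrophages, 34.5 in place of 88.2 CPM in B cells and 12.1 in place of 71.4 CPM in cDC. In the same way Tnfrsf18 had 8.08 in place of 39.6 CPM in macrophages and 35.4 in place of 67.6 CPM in B cells, and Cd28 had 8.39 in place of 34.6 CPM, 26.5 in place of 43.2 CPM and 3.28 in place of 32.5 CPM in macrophages, B cells and cDC. The part of carried-over T cell RNA in these values was not tested.

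Dendritic cells of library 2 held exceptions. Tnfrsf9 was there at 81.8 CPM, 170% of the Cd4 class level, when Cd3e was at 0.452% of it. Tnfrsf4 and Tnfrsf18 were there at 11.2% and 8.66% of the Cd4 class level, with Icos and Cd28 at 0%. Tnfrsf18 in cDC lay at 10.5%, 8.66% and 13.7% in libraries 1, 2 and 3. The 25 Tnfrsf9 UMIs came from 6 of 28 cells, with 9 and 6 UMIs in the highest cells, and all 25 lay in the 12 cells with a UMI of Ccr7, a gene of migrating dendritic cells. In libraries 1 and 3 cDC had 10 and 5 Tnfrsf9 UMIs (5.04 and 19.8 CPM), of which 9 and 1 lay in cells with Ccr7. Ccr7 itself was at 268, 1256 and 210 CPM in cDC. The division by Ccr7 was chosen after the values were seen.

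**Figure D4:**
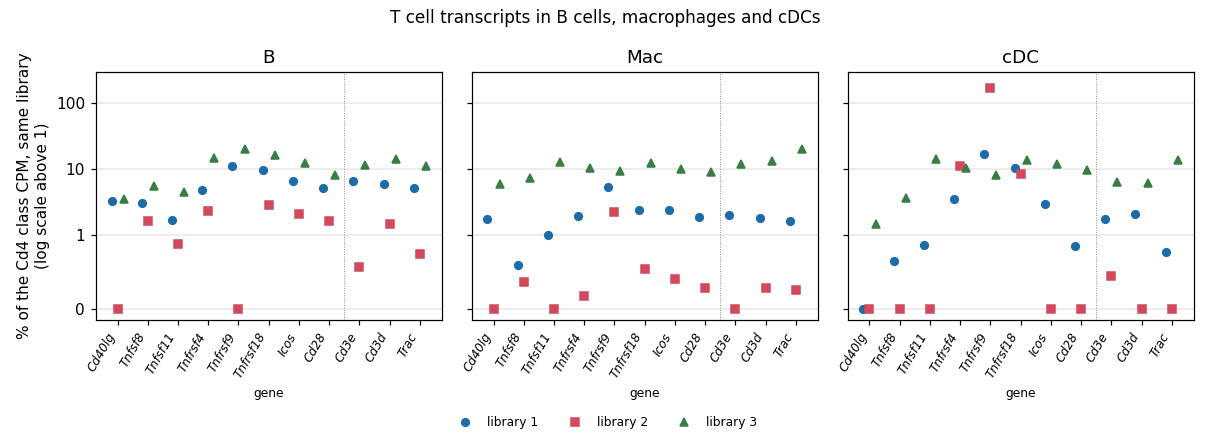
CPM of 8 of the genes and of 3 T cell receptor genes (right of the dotted line) in B cells, macrophages and cDC, as a percentage of the Cd4 class CPM of the same library; the axis is logarithmic above 1 and linear below. Library 3 is highest for every gene drawn in B cells and macrophages, and Tnfrsf9 in cDC of library 2 stands at 170%.

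The binding partners of the 9 genes were taken as a list, chosen with earlier results of these data known, and 8 listed genes were tested. The list also holds Ctla4, which is not such a partner but shares CD80 and CD86 with CD28. Its calls are counted with those of the partners. Tnfsf18 and Tnfrsf11b are not analysed here. Each ranked class was set against the mean of the other 7 in an edgeR quasi-likelihood fit with library as a block, and a gene was called at an adjusted p (Benjamini-Hochberg) under 0.05 over 10895 genes. The classes came from the same counts, so the calls describe the classes and are no independent test of them. In cDC 6 of the 8 were called higher and 1, Ctla4, lower, against 20.8% and 19.0% of all genes tested. The median log2 difference of the 8 was 3.63 against -0.11 over all genes. In macrophages 5 were called higher and 1, again Ctla4, lower (background 25.8% and 22.1%), and in B cells 3 and 3 (20.8% and 16.4%). Ctla4 was among the lower calls in B cells and the higher calls in Cd4, Cd8 and Treg. Cd4 had 3 higher and 1 lower (19.8% and 10.7%), Cd8 3 and 2 (17.8% and 10.1%), Treg 2 and 2 (15.8% and 9.42%), the gamma-delta T, NK and NKT class 1 and 2 (14.9% and 10.5%) and Mixed 0 and 1 (8.48% and 4.68%).

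The CD28 ligand gene Cd86 was read mainly in the antigen-presenting classes, while Cd80 was also read in Cd8. Cd86 stood at 253, 301 and 135 CPM in cDC, 207, 230 and 97.0 CPM in macrophages and 156, 188 and 103 CPM in B cells, against 17.0 ± 1.78 CPM in Cd8, the next class. Cd80 was at 31.2, 68.7 and 27.7 CPM in cDC, 13.6, 60.6 and 19.1 CPM in B cells, 18.3 ± 7.23 CPM in Cd8 and 17.0 ± 7.11 CPM in macrophages, which overlapped. Icosl, the ligand of ICOS, was highest in cDC at 50.9, 118 and 119 CPM, followed by B cells at 39.8, 27.1 and 105 CPM and macrophages at 21.4 ± 4.91 CPM, with T cell classes at 4.15 CPM or less. Tnfsf9, the 4-1BB ligand, was at 89.2, 193 and 641 CPM in cDC and 17.4, 75.2 and 143 CPM in macrophages. Its level in Cd4 was 22.8, 47.3 and 51.8 CPM. The 162 Tnfsf9 UMIs in cDC of library 3 came from 12 of 34 cells, with 64 and 31 in the highest cells.

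Tnfrsf11a, the receptor of RANKL, was read mainly in myeloid cells, and each other ranked class held 3 UMIs or fewer. Macrophages held 20.2, 22.5 and 55.6 CPM and cDC 20.2, 22.9 and 39.6 CPM, whereas the Cd4 class held 3 UMIs in all and B cells none, which allows up to 0.660, 6.26 and 1.69 CPM in libraries 1, 2 and 3. The log2 difference from the other classes was 5.77 in macrophages (SE 0.34, adjusted p = 6.22e-13, edgeR) and 5.38 in cDC (SE 0.42, adjusted p = 3.12e-10, edgeR). Each SE is the difference divided by the square root of its F statistic, not an estimate given by the fit. When 1 library was left out, the difference lay between 5.28 and 6.27 in macrophages and between 5.09 and 5.95 in cDC. In libraries 1 and 2 the ligand gene Tnfsf11 had at most 3 UMIs in macrophages and in cDC, while in library 3 it was read there at 35.7 and 39.6 CPM, beside Tnfrsf11a at 55.6 and 39.6 CPM.

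Tnfrsf8, the receptor of CD30 ligand, was low throughout. It was highest in Treg at 10.7, 13.2 and 20.1 CPM from 65 UMIs, with 8.14 ± 4.53 CPM in the gamma-delta T, NK and NKT class and 7.69 ± 2.84 CPM in Cd8. It had no UMI in cDC or Mixed. That allows up to 1.51, 9.82 and 11.9 CPM in cDC and 10.1, 6.49 and 10.2 CPM in Mixed for libraries 1, 2 and 3. Absence in Mixed is therefore not shown. Tnfsf4, encoding the OX40 ligand, was read in cDC only in library 2, at 52.3 CPM from 16 UMIs in 3 of 28 cells, 1 of which held 11. In cDC of libraries 1 and 3 it had 0 UMIs, which allows up to 1.51 and 11.9 CPM. Its call in cDC was not refitted without library 1 or 2. Cd8 held 64 Tnfsf4 UMIs at 6.77, 6.97 and 5.24 CPM, and was called higher, but not without library 3 (adjusted p = 0.0682, edgeR). Ctla4, the inhibitory receptor for CD80 and CD86 that lies between Cd28 and Icos, was highest in Treg at 1104, 1910 and 2351 CPM and lower in Cd4 at 562, 1051 and 1936 CPM within each library, ranges that overlapped.

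**Figure D5:**
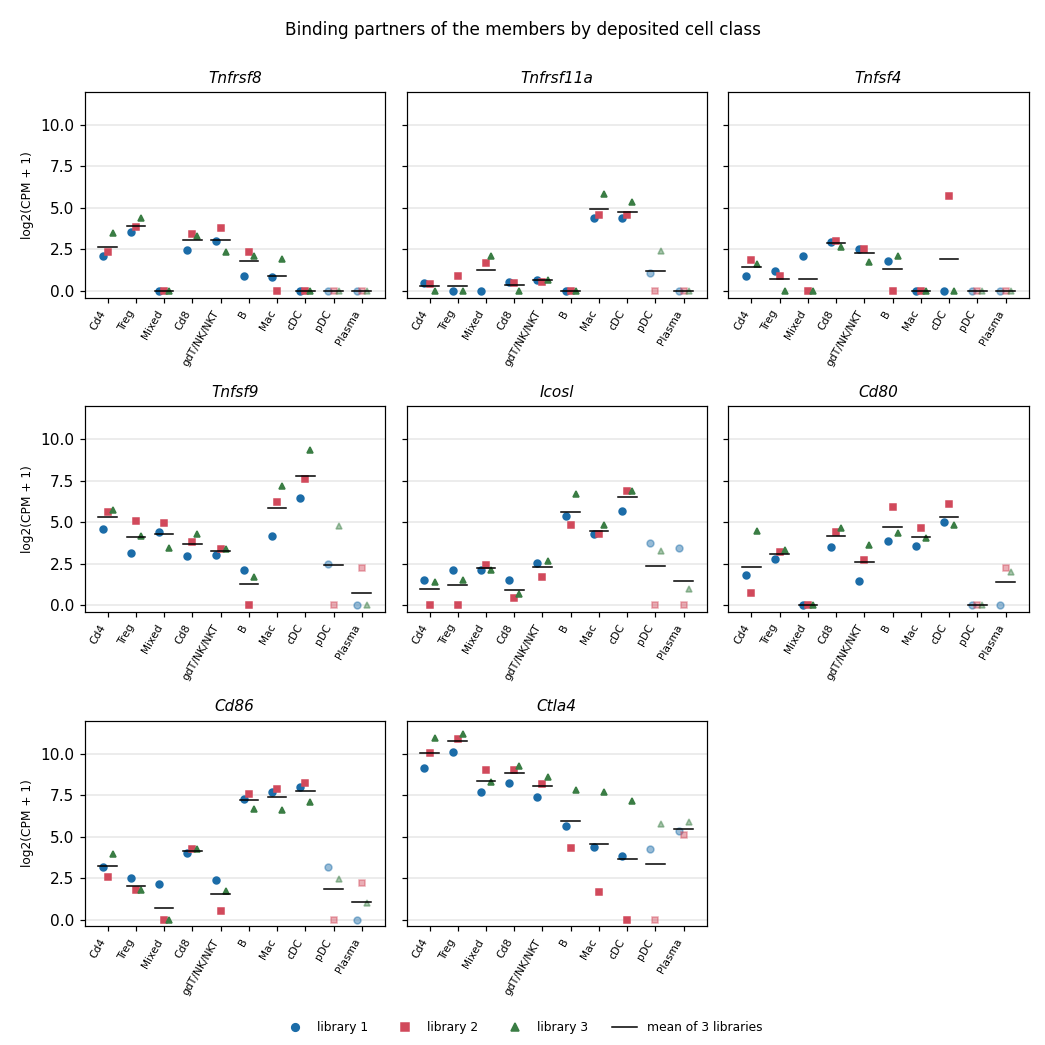
Levels of the 8 genes of the partner list, Ctla4 included, as log2(CPM + 1) in each deposited class. Each library is 1 point, and a bar marks the mean of the 3 log2 values. Faded points are the classes that were not ranked. Cd80, Cd86, Icosl and Tnfsf9 peak in cDC, Tnfrsf11a is near 0 outside macrophages and cDC, and Ctla4 is highest in Treg.

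Over the partners and the largest changes of the other lists, 48 calls were made for named genes, and 45 could be refitted without each library in turn. In 31 of these the call held whichever library was left out. The other 14 were lost, with adjusted p from 0.0523 to 1 in edgeR at their weakest. Leaving out library 1 ended the calls of Cd80 in B cells (adjusted p = 0.102, edgeR) and macrophages (adjusted p = 0.198, edgeR), Cd86 in Treg and in the gamma-delta T, NK and NKT class, Ctla4 in B and in Cd8 (adjusted p = 0.334, edgeR), Tnfrsf11a in B, Tnfrsf25 in cDC, Tnfrsf8 in Cd4 (adjusted p = 0.203, edgeR) and in the gamma-delta T, NK and NKT class, and Tnfsf9 in Cd4 and Cd8. Leaving out library 2 ended those of Cd80 in macrophages, Tnfrsf11a in B, Tnfrsf8 in the gamma-delta T, NK and NKT class, and Tnfsf9 in Cd4, Cd8 and the gamma-delta T, NK and NKT class. Leaving out library 3 ended those of Icosl in Treg, Tnfrsf25 in cDC and Tnfrsf8 in Cd4.

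Of the further TNF family costimulation genes, 5 were tested and all 5 were called higher in Cd4, against 19.8% of all genes. In Treg 4 were called higher and 0 lower (15.8% and 9.42% of all genes), in macrophages 2 and 1 (25.8% and 22.1%), in Mixed 2 and 1 (8.48% and 4.68%), in cDC 1 and 2 (20.8% and 19.0%), in Cd8 1 and 0 (17.8% and 10.1%), in the gamma-delta T, NK and NKT class 1 and 1 (14.9% and 10.5%) and in B cells 0 and 3 (20.8% and 16.4%). The shares of all genes are the same for the 2 lists that follow. Tnfrsf25, a death-domain receptor of T cells, was highest in Mixed at 101, 132 and 102 CPM, then Cd4 at 33.8, 49.7 and 34.6 CPM and Treg at 11.3, 23.2 and 21.9 CPM. It had no UMI in cDC, which allows up to 1.51, 9.82 and 11.9 CPM in libraries 1, 2 and 3. Cd27, the receptor of CD70, was highest in Treg at 716, 938 and 592 CPM and in Cd8 at 519, 698 and 415 CPM, against 7.07 ± 4.39 CPM in cDC. Its ligand Cd70 was at 2.02, 52.3 and 3.96 CPM in cDC, where library 2 again stood apart: 12 of its 16 UMIs came from 1 cell. Its call in cDC was not refitted without library 2.

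The TRAF and NF-kB list had 10 genes tested, of which 5 were called higher and 2 lower in B cells, 5 and 2 in cDC, 3 and 0 in Cd4 and 2 and 1 in Treg. Lower calls outnumbered higher ones in Cd8 (1 higher and 4 lower), in the gamma-delta T, NK and NKT class (2 and 5), in macrophages (3 and 4) and in Mixed (2 and 3). Traf5, an adaptor of OX40, GITR and CD40, was highest in B cells at 60.5, 77.3 and 97.8 CPM and lowest of the ranked classes in Mixed at 6.76, 2.16 and 13.5 CPM from 7 UMIs. Rel, the NF-kB subunit c-Rel, was at 719, 549 and 462 CPM in B cells and 118, 154 and 54.2 CPM in Mixed. On the list of CD28 and ICOS signalling genes, also 10 tested, 4 were called higher and 2 lower in Cd4, 4 and 1 in Treg, 4 and 2 in Cd8 and 6 and 1 in the gamma-delta T, NK and NKT class. B cells had 3 higher and 5 lower, cDC 4 and 5, macrophages 3 and 6 and Mixed 2 and 2. Prkcq, the protein kinase that links CD28 to NF-kB, was at 109, 108 and 179 CPM in Cd4 and 90.4 ± 8.41 CPM in Treg against 1.82 ± 2.00 CPM in cDC. Lck, the kinase that starts T cell receptor signalling, was at 628 ± 175 CPM in Cd4 and at 17.3 ± 19.5 CPM in cDC.

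Across the 24 sums of class and library, the 9 genes were correlated to different degrees. Pearson's r of log2(CPM + 1) was 0.96 between Icos and Cd28, 0.89 between Cd40lg and Tnfsf11, 0.88 between Cd40lg and Tnfsf8, 0.87 between Tnfsf11 and Icos, 0.85 between Tnfrsf4 and Tnfrsf18 and 0.84 between Tnfrsf9 and Tnfrsf18, and it was -0.74 between Cd40 and Cd28. The sums share libraries, depth and class definitions, so these coefficients are descriptive. Among 7676 other genes with a mean of at least 10 CPM, the most alike was Tnfrsf25 for Cd40lg (r = 0.90), Cd4 for Tnfsf8 (0.86), Cd82 for Tnfsf11 (0.88), H2-DMa for Cd40 (0.98), Gpm6b for Tnfrsf4 (0.90), Adora2a for Tnfrsf9 (0.91), Zc3hav1 for Tnfrsf18 (0.93), Lat for Icos (0.97) and Cd6 for Cd28 (0.97). Cd40lg was next most like Cish and Prelid2, Tnfrsf4 like Izumo1r and Fam114a2, and Cd40 like Tbc1d9 and Spi1.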

How the data were processed

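Droplet single-cell RNA sequencing of CD45+ sciatic nerve cells was analysed from the deposited table of UMI counts per gene and cell (whole numbers, with no normalization by the authors seen in the values) and the deposited classes and clusters. The submitters' processing notes name Cell Ranger 5.0.1, Seurat 4.0 and the build mm10, without roles; filters on cells are not given in the sources used here. Libraries held 22587246, 11398628 and 13791264 UMIs. Counts were summed per class and library and scaled to CPM; 1 CPM was added before logs. Doublets (103 calls by Scrublet in scanpy 1.11.5) were kept, and left out as an alternative. Classes with fewer than 20 cells in any library were not ranked. Floors for 0 UMIs are 3 counts; they cover counting error only.

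List genes were tested with edgeR 4.0.16 (TMM, filterByExpr, glmQLFit, glmQLFTest), each of 8 classes against the mean of the other 7. DESeq2 1.42.0 was an alternative. The fit was also run on simulated counts with no library effect and with genes changed in 1 class only. Those settings differ from these data, so that run cannot vouch for the calls given here. The library is the block, since the classes of 1 library come from the same cell suspension. The 9 genes, the lists and the tests were chosen with earlier results of these data known. Text names all 9 genes, all partners, and from the other lists the genes with the 2 largest called changes per direction; likeness names the top genes by r. One gene that the rule names is not reported here. Alternatives were TMM-scaled CPM, means over cells, 5 CPM added before logs, another thinning depth, other tools and filters, no block, and leaving out doublets, cluster 5 or 1 library. Motifs and promoter windows come from RefSeq on GRCm38.p6.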

Additional observations from a re-analysis of the deposited data

How the results depend on the processing

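Of 264 tests of list genes by class, 92 gave a higher level and 66 a lower one. Without the replicate block, that is with the classes of 1 library not paired, 55 were called higher and 35 lower; the cause was not tested. Leaving out 1 library in turn gave 61 to 87 higher and 40 to 57 lower, the lowest both times without library 1, a fit with fewer samples. DESeq2's size factors, its Wald test, no filter, no doublets and no cluster 5 gave 81 to 93 higher and 64 to 74 lower. The log2 ratios of the highest class of each of the 9 genes to the next kept their direction under every alternative tried. Of the levels and ratios in the highest class, 1 level and 1 ratio moved by more than 1 SD, both for Cd28. Averaging CPM over cells gave 969 CPM in Cd4 and a log2 ratio of Cd4 to Treg of 0.86. Leaving out 1 of 3 libraries cannot move a mean by 1 SD, so for those alternatives this limit shows nothing about stability. The ratio of Mixed to Cd4 for Cd40lg was 0.53 on the log2 scale and 0.09 without library 2. Shares of cells with a UMI moved with depth in 17 values, as more UMIs per cell were kept. Transcripts with a few UMIs per class, such as Tnfsf4 and Cd70 in cDC, are limited by depth and by 28 cells in library 2.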
